A study of Mus musculus with 10 samples.

Results

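The genes described here encode the proteins of milk and of the milk fat globule, the membrane-wrapped lipid droplet that the mammary alveolar cell secretes. They were chosen by gene symbol and numbered 10 of the 53167 genes listed: the caseins Csn1s1, Csn1s2a, Csn2 and Csn3, the whey proteins Wap and Lalba, and the milk fat genes Btn1a1, Xdh, Muc15 and Plin2. All 10 had counts, and 9 passed the filter on low counts, as did 14415 genes in all; Wap did not. RNA came from wild-type mouse primary mammary epithelial cells, isolated from the gland and grown in DMEM with fetal bovine serum. In the BGN group, 5 libraries came from cells given 100 ng/mL biglycan protein, a small proteoglycan of the extracellular matrix, and in the Control group 5 libraries came from cells given none. The labels name no strain, age or reproductive stage, no duration of stimulation and no prolactin, glucocorticoid or insulin in the medium. Nor do they say whether replicates were separate cultures or animals, so p-values measure only the spread between these libraries, which may be technical.

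Milk protein genes are switched on in the alveolar cells of the luminal layer during pregnancy and lactation. Prolactin, acting through its receptor Prlr and the kinase Jak2, activates the transcription factor Stat5, which binds the letters TTCNNNGAA in casein promoters, while glucocorticoids and contact with basement membrane add to the response. In the lactating mouse gland Csn1s1, Csn2 and Wap are among the most abundant messages. The lipid droplet is coated by Plin2 inside the cell and leaves it wrapped in apical membrane, in a step that needs Btn1a1 and Xdh.

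The upstream sequences of 3 casein genes are shown because these genes lie in the same cluster on chromosome 5 and yet differed widely in level in these cells. Each is the 250 bases before the annotated transcript start, 5′ to 3′ on the gene's own strand, from RefSeq on GRCm38.p6. These are chr5:87665958-87666207 on the plus strand for Csn1s1, chr5:87699426-87699675 on the minus strand for Csn2 and chr5:87774200-87774449 on the plus strand for Csn1s2a. Capitals mark matches to TTCNNNGAA, which reads the same on both strands.
Csn1s1: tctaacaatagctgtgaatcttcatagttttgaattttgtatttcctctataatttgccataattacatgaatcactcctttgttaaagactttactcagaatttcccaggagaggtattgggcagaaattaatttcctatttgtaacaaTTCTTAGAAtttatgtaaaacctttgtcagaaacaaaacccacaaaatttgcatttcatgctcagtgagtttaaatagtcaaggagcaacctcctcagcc
Csn2: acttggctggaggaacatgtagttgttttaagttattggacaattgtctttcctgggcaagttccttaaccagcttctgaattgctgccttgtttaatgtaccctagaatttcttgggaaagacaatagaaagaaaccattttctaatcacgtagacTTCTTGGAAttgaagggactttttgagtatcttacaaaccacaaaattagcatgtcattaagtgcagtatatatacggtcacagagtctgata
Csn1s2a: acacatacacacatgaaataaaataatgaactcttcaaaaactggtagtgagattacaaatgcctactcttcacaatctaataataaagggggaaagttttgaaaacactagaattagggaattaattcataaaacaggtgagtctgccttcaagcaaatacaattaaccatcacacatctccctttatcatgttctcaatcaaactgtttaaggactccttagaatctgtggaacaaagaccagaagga
Csn1s1 and Csn2 each held 1 match, TTCTTAGAA with its first base at position -100 from the start and TTCTTGGAA at position -93. The printed Csn1s2a window held 0, and 1 match lay within the 50 bases after its annotated start. Of 32851 promoter windows of the same length, 7.02% held the motif. Sequences were found for 6 of the 10 genes, and Wap, Lalba and Plin2 had 0 matches to the motif. None was found for Csn3, the casein of highest level, nor for Btn1a1, Xdh and Muc15. Csn1s1 and Csn2, each with 1 match, themselves differed widely in level. Whether the motif bears on level in these cells was not tested.

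The cells expressed casein and milk fat genes unevenly. Csn3, which encodes kappa-casein, the casein that keeps micelles in suspension, had the highest level per length, at 700 ± 98.6 CPM per kb of its longest coding transcript (CPM, read counts scaled to library size with TMM factors; SD, n = 10 libraries). Muc15, a glycoprotein of the milk fat globule membrane known from cow's milk, was at 279 ± 19.5 CPM per kb, Csn1s1 (alpha-S1-casein) at 252 ± 14.1 and Plin2 at 181 ± 14.0 CPM per kb. These 4 levels ranked 47, 168, 187 and 270 among 12425 tested genes with a coding transcript length. Xdh and Btn1a1 were far lower, at 22.5 ± 3.40 and 19.3 ± 1.28 CPM per kb. Csn2, the beta-casein gene, stood at 4.94 ± 1.75 CPM per kb, Lalba at 1.66 ± 0.538, Csn1s2a at 0.56 ± 0.213 and Wap at 0.390 ± 0.169 CPM per kb. The ranges over libraries overlapped for Xdh and Btn1a1, for Muc15 and Csn1s1, and for Csn1s2a and Wap. Such overlap does not say whether the order within a pair held inside each library. For Xdh and Btn1a1 it did not hold in BGN replicate 5. There Xdh had 17.0 CPM per kb, below the lowest value of Btn1a1 in any library (17.7). For the other pairs this was not tested. The order also depended on the length used. Over the union of all annotated exons, Csn3 (269) and Muc15 (268) stood level and Plin2 (97.2) passed Csn1s1 (56.9), in CPM per kb. By the same measure Btn1a1 (16.0) passed Xdh (11.3), Lalba (1.66) passed Csn2 (0.948) and Wap (0.213) passed Csn1s2a (0.147). Csn3 remained above Csn2, and Csn1s1 above Csn2, with either length.

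**Figure D1:**
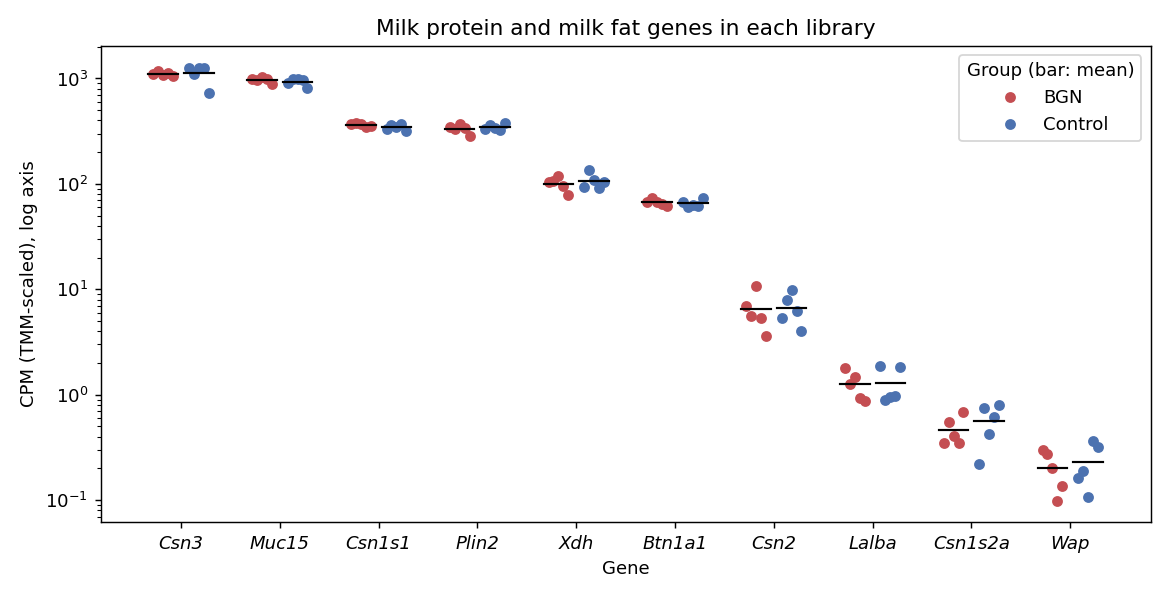
CPM of each of the 10 genes on a log axis, with 1 point per library, BGN in red and Control in blue, and a bar at the group mean (n = 5 each). The genes span from Csn3, at up to 1269 CPM, to Wap, at no more than 0.362 CPM, and the points of the groups overlap for every gene.

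The libraries expressed keratins of both epithelial layers, and their milk genes made up a small part of the message. The 10 genes took 0.296 ± 0.0125% of all counts in BGN and 0.293 ± 0.0279% in Control (here and below, ± is the SD over the 5 libraries of a group, n = 5). Totals ran from 18299757 to 21820560 counts in BGN and from 18292624 to 21161486 in Control, and did not differ beyond their spread (exact permutation p = 0.286, two-sided). The basal keratin Krt14 averaged 3524 ± 88.0 CPM with BGN and 3741 ± 358 CPM in Control cells, and the luminal keratin Krt8 averaged 876 ± 26.2 CPM with BGN and 915 ± 45.4 CPM in Control cells. Krt5, also basal, averaged 1478 ± 72.3 CPM with BGN and 1547 ± 105 CPM in Control cells, and Krt18, also luminal, 567 ± 26.2 CPM with BGN and 598 ± 35.2 CPM in Control cells. Of 9 basal markers 7 averaged at least 1 CPM over the 10 libraries, with Acta2 at 27.6 CPM and Mylk at 3.94 CPM. The basal markers Myh11 (0.201 CPM) and Cnn1 (0.271 CPM) failed the filter. All 9 markers of luminal progenitor or alveolar cells were detected, with a summed level of 4786 to 5954 CPM with BGN and 5422 to 6324 CPM in Control cells. The largest parts of this sum were Lcn2 and Trf, averaging 2081 and 1292 CPM over the 10 libraries. Elf5, another of the 9 and a transcription factor needed for alveolar development, was at 272 ± 6.84 CPM with BGN and 276 ± 6.16 CPM in Control cells. Of 10 fibroblast markers 9 had counts (Dpt had 0), with a sum of 1896 to 2448 CPM with BGN and 1415 to 2270 CPM in Control cells, most of it Postn. Only 4 of the 10 averaged at least 1 CPM: Postn, Pdgfra (38.7 CPM), Col1a1 (4.42 CPM) and Dcn (2.63 CPM). Col1a2 and Col3a1 averaged 0.316 and 0.438 CPM, and Lum had 4 counts in all. Of 13 myeloid markers 5 had 0 counts, of 9 endothelial markers 1 and of 10 lymphocyte markers 8. Averaging at least 1 CPM were 3 myeloid markers, Cd163 (17.3 CPM), Cd68 (1.65 CPM) and Csf1r (1.26 CPM). The same held for 1 endothelial marker, Pecam1 (5.25 CPM), and for 0 lymphocyte markers. No marker of any of these lists was called. In bulk RNA, fewer cells of a type and less RNA per cell cannot be told apart. Control replicate 5 had the lowest share of counts on mitochondrial transcripts, 1.16%, where the others had 1.80% to 2.27%. By group the share was 2.14% to 2.26% with BGN and 1.16% to 2.27% in Control cells. For the summed level of the milk genes, BGN replicate 5 and Control replicate 5 stood apart. The sum was 2724 CPM in BGN replicate 5, against 2978 to 3059 CPM in the other BGN libraries, and 2420 CPM in Control replicate 5, against 3012 to 3112 CPM in the other Control libraries. Not every milk gene was low in Control replicate 5. Csn1s2a, Wap, Lalba, Btn1a1 and Plin2 had 1.10 to 1.60 times the mean of the other Control libraries, and the remaining milk genes 0.547 to 0.968 times. The log2 fold change of each tested milk gene is therefore also given without BGN replicate 5 and without Control replicate 5.

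None of the 9 milk genes tested passed the threshold for a difference between BGN and Control. Of the 9 tested, edgeR called 0 higher and 0 lower at a threshold of 0.05 on the Benjamini-Hochberg adjusted p of its quasi-likelihood test (smallest among them 0.945), and the same fit called 0% of 14415 genes. At an unadjusted p under 0.05 there were 0 of the 9 against 4.81% of all genes. For 0 of the 9 were the CPM ranges of BGN and Control separate, as they were for 0.728% of all genes. By DESeq2 and by limma-voom 0 genes passed after adjustment, while 4.59% and 5.61% of genes had an unadjusted p under 0.05. With no filter on low counts 0 of the 10 milk genes and 0.0113% of 26531 genes passed in edgeR. Of the 9 estimates 3 lay above and 6 below 0, where 48% of all tested genes lay above, and their median log2 fold change was -0.038, against -0.0040 for all genes. Without BGN replicate 5, 8 of the 9 lay above 0, and without Control replicate 1, 2 or 3 the number was 5 each time, so the split of signs rested on single libraries. For 6 of the 9 the whole 95% interval was smaller than a 1.5-fold change up or down. The same held for 12237 of all 14415 tested genes, a larger share. The exceptions among the 9 were Csn1s2a, Csn2 and Lalba.

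**Figure D2:**
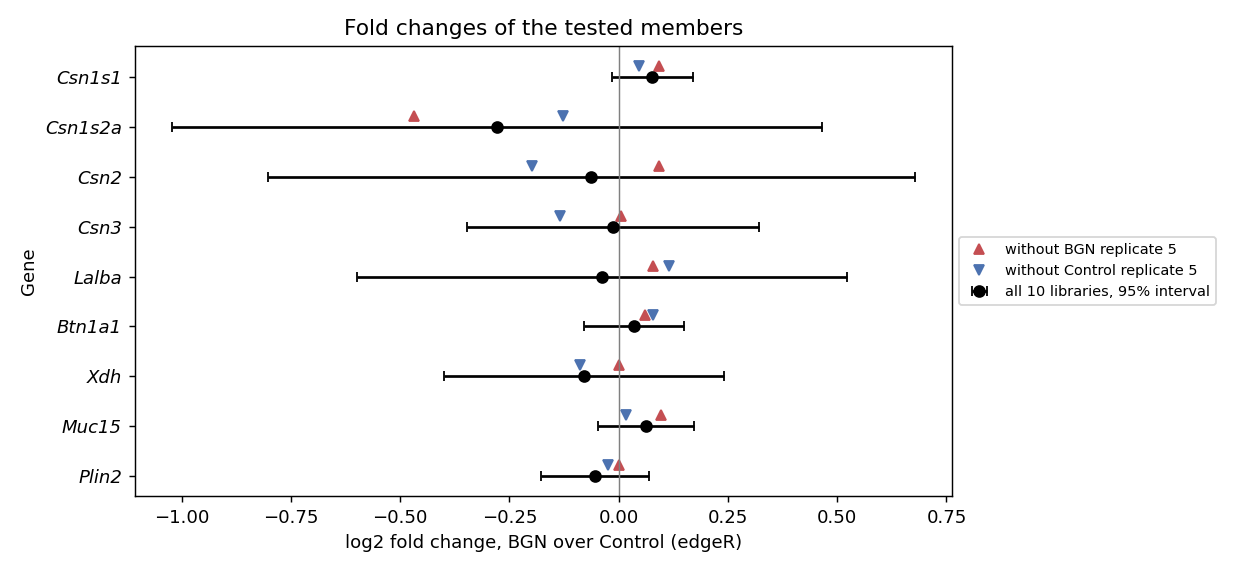
Estimated log2 fold change, BGN over Control, of the 9 tested genes, with black points and 95% intervals from all 10 libraries, red triangles without BGN replicate 5 and blue triangles without Control replicate 5. Every interval includes 0, and the intervals of Csn1s2a, Csn2 and Lalba are the widest.

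Among the caseins, Csn3 was steady in every library but Control replicate 5. It stood at 1113, 1179, 1079, 1131 and 1057 CPM in BGN replicates 1 to 5, against 1269, 1095, 1261, 1256 and 729 CPM in Control replicates 1 to 5. The last library was the lowest of all 10 and the groups overlapped. The mean was 1112 ± 47.3 CPM with BGN and 1122 ± 231 CPM in Control cells, with a log2 fold change of -0.013 and an SE of 0.146 (95% interval from -0.35 up to 0.32, edgeR adjusted p = 0.995). Without Control replicate 5 the estimate was -0.13 (edgeR adjusted p = 0.844), and without BGN replicate 5 it was 0.0057. With the replicate number as a block it was 0.014. Within Control, replicate 5 had 0.598 times the mean of the other 4 libraries for Csn3 and 0.547 times for Csn2, but 0.895 times for Csn1s1 and 1.15 times for Btn1a1. The part that its low mitochondrial share plays in these values was not tested.

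Csn1s1 had the smallest p of the milk genes and the tightest interval. It was at 374, 382, 368, 349 and 352 CPM in BGN replicates 1 to 5, against 335, 363, 345, 370 and 316 CPM in Control replicates 1 to 5. BGN replicates 1 and 2 lay above every Control library, the other 3 within their range. The log2 fold change was 0.077 with an SE of 0.0445 (95% interval from -0.015 up to 0.17, edgeR adjusted p = 0.945), or 0.091 without BGN replicate 5 and 0.047 without Control replicate 5, with 0 of 20 alternatives turning its sign.

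Csn2 was low in level and spread widely over the libraries of both groups. Its CPM was 6.93, 5.58, 10.7, 5.40 and 3.64 in BGN replicates 1 to 5, against 5.35, 7.99, 9.84, 6.26 and 4.03 in Control replicates 1 to 5. Each group thus held a library near the top and another near the bottom of the range. The coefficient of variation over the 10 libraries was 35.4%, of which counting at a mean of 129 counts alone would give 8.80%, and the highest library had 2.93 times the level of the lowest. By the same measure Btn1a1 varied by 6.65%, with 2.78% from counting. The log2 fold change of Csn2 was -0.063 with an SE of 0.325 (95% interval from -0.80 up to 0.68, edgeR adjusted p = 0.993). It was 0.093 without BGN replicate 5 and -0.20 without Control replicate 5, and over all left-out libraries it ranged from -0.32 (without BGN replicate 3) to 0.11 (without Control replicate 3), so its direction changed with single libraries. Csn1s2a, an alpha-S2-like casein, was near the limit of the test, with 7, 10, 8, 7 and 15 counts in BGN and 4, 16, 8, 12 and 15 counts in Control. It reached the filter's level in 5 of 10 libraries, the fewest allowed, in both groups. Its log2 fold change was -0.28 (95% interval -1.02 to 0.47, edgeR adjusted p = 0.977), or -0.47 without BGN replicate 5 and -0.13 without Control replicate 5.

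The whey protein genes Wap and Lalba were low, at means of 0.215 and 1.28 CPM over the 10 libraries. The casein Csn1s2a stood between them, at 0.515 CPM. Wap, the whey acidic protein of rodent milk, had 6, 5, 4, 2 and 3 counts in BGN replicates 1 to 5, against 3, 4, 2, 7 and 6 counts in Control replicates 1 to 5. The 20 counts in BGN gave 0.199 CPM (exact Poisson 95% interval 0.122 to 0.308) and the 22 in Control 0.228 CPM (0.143 to 0.346), a ratio of 0.873 with an exact binomial 95% interval of 0.452 to 1.68; these intervals cover counting error only. Counting error alone thus left ratios between 0.452 and 1.68 undecided at this depth. Lalba, the alpha-lactalbumin gene, whose product joins B4galt1 to make lactose, was at 1.78, 1.26, 1.47, 0.941 and 0.865 CPM with BGN, against 1.86, 0.893, 0.957, 0.982 and 1.83 CPM in Control cells. BGN replicate 1 and Control replicates 1 and 5 were the high libraries. Its log2 fold change was -0.038 with an SE of 0.271 (95% interval from -0.60 up to 0.52, edgeR adjusted p = 0.994), and leaving out either replicate 5 turned it to 0.079 (BGN) or 0.11 (Control). B4galt1 itself, an enzyme of many tissues, was at 377 ± 7.87 CPM with BGN and 372 ± 12.2 CPM in Control cells.

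The genes of fat globule secretion ranged less widely than Csn2, with 1.21 times (Btn1a1) and 1.72 times (Xdh) between the lowest and the highest library. Btn1a1, which encodes butyrophilin, was at 67.4, 73.2, 66.8, 64.5 and 62.4 CPM in BGN replicates 1 to 5, against 67.7, 60.6, 63.3, 61.8 and 72.9 CPM in Control replicates 1 to 5. Its log2 fold change was 0.035 with an SE of 0.0550 (95% interval from -0.079 up to 0.15, edgeR adjusted p = 0.980), or 0.061 without BGN replicate 5 and 0.078 without Control replicate 5. Without BGN replicate 2, its highest library, it was 0.0018. Xdh, xanthine dehydrogenase, whose protein binds butyrophilin at the apical membrane, was at 105, 106, 119, 94.7 and 78.4 CPM with BGN, against 93.5, 135, 109, 90.9 and 104 CPM in Control cells. BGN replicate 5 was its lowest library and Control replicate 2 its highest. The log2 fold change was -0.080 with an SE of 0.140 (95% interval from -0.40 up to 0.24, edgeR adjusted p = 0.985), which came to 3.71e-05 without BGN replicate 5 and -0.089 without Control replicate 5.

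Muc15 and Plin2 had the highest levels per length among the milk fat genes. Muc15 was at 990, 969, 1042, 995 and 883 CPM in BGN replicates 1 to 5, against 903, 990, 986, 976 and 817 CPM in Control replicates 1 to 5. Replicate 5 was the lowest library of each group. The log2 fold change was 0.062 with an SE of 0.0528 (95% interval from -0.048 up to 0.17, edgeR adjusted p = 0.963), or 0.097 without BGN replicate 5 and 0.018 without Control replicate 5. In the GENCODE M21 annotation of GRCm38, Muc15 shares 61 exon bases with Ano3 on the opposite strand, and Ano3 had 2.31 ± 0.325 CPM with BGN and 2.44 ± 0.658 CPM in Control cells. Plin2 was at 349, 330, 373, 337 and 286 CPM with BGN, against 335, 365, 336, 327 and 375 CPM in Control cells. BGN replicate 5 was the lowest library and Control replicate 5 the highest. Its log2 fold change was -0.054 with an SE of 0.0587 (95% interval from -0.18 up to 0.070, edgeR adjusted p = 0.975), or 6.3e-05 without BGN replicate 5 and -0.025 without Control replicate 5. Plin2 also coats droplets in fat cells. Of 12 adipocyte markers, Pck1 and Slc7a10 had 0 counts, and Adipoq, Lep, Retn, Cfd and Car3 each averaged at most 0.0246 CPM over the 10 libraries. The summed level of the 12 was 18.6 to 22.1 CPM with BGN and 20.2 to 24.3 CPM in Control cells, nearly all of it from Lipe (19.3 CPM with BGN, 20.5 CPM in Control cells), a lipase gene that is not limited to fat.

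The libraries that were high or low differed from gene to gene. BGN replicate 5 had the lowest CPM for 4 of the 9 tested genes (Csn2, Lalba, Xdh and Plin2) and Control replicate 5 for 3 (Csn1s1, Csn3 and Muc15). Control replicate 5 was also the highest library for Csn1s2a and Plin2. Csn2 and Muc15 followed each other over the 10 libraries, with a Pearson r of 0.81 and a Spearman rho of 0.76 on log2 CPM, and r = 0.89 within groups. Xdh and Plin2 had r = 0.80 and rho = 0.64, Lalba and Btn1a1 r = 0.75 and rho = 0.76, and Csn2 and Xdh r = 0.72 and rho = 0.78. Without the 2 libraries farthest from the median of the first gene named, r was 0.81, 0.61, 0.67 and 0.71 for these pairs in that order. Other high values leaned on Control replicate 5. Csn1s1 and Muc15 had r = 0.76 but rho = 0.39, and r = 0.48 without that library. Csn3 and Muc15 had r = 0.65 but rho = 0.079, and r = -0.12 without it. The caseins did not move as a block: Csn1s1 and Csn3 had r = 0.56, which became -0.30 without Control replicate 5, and rho = 0.042. Over all 36 pairs r ran from -0.55 to 0.81 with a median of 0.020. These values describe 10 libraries that share their scaling, and the pairs named were chosen after their values were seen.

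**Figure D3:**
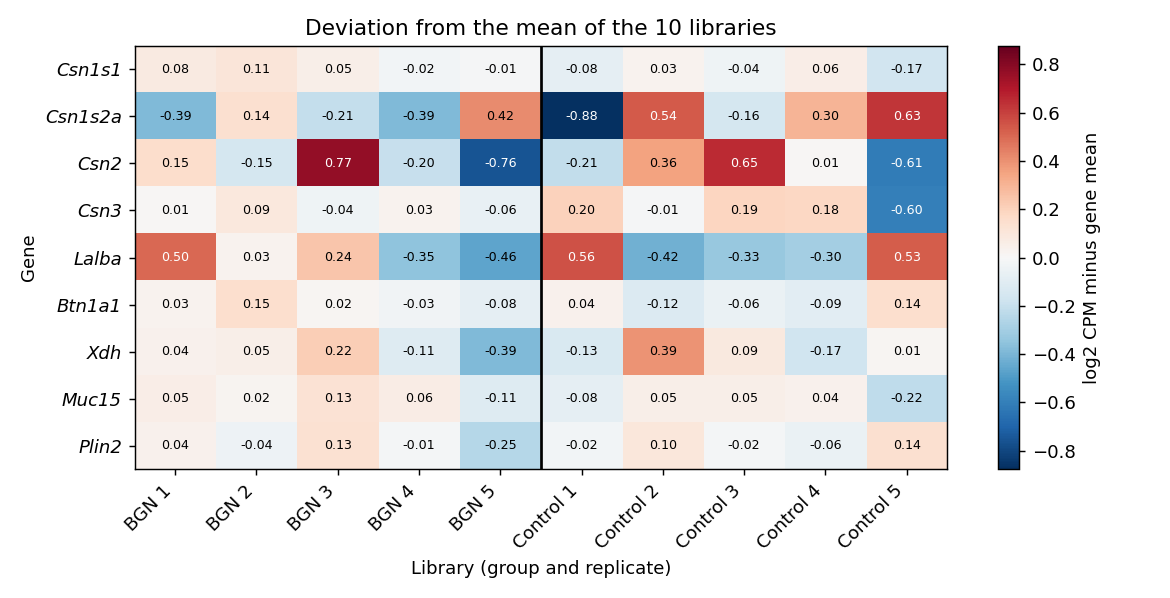
Log2 CPM of each of the 9 tested genes minus its mean over the 10 libraries, with libraries in columns (BGN left of the line, Control right of it) and the value written in each cell. Csn2 ranges from -0.76 in BGN replicate 5 to 0.77 in BGN replicate 3, and Csn3 departs from the other libraries in Control replicate 5, at -0.60.

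The genes whose pattern was most like that of Csn3 over the 10 libraries, by Pearson r on log2 CPM, were Fam122b (0.98), Gabrp (0.96), Rps26 (0.96), Laptm4a (0.95) and Ube2d3 (0.95). Their Spearman rho was 0.88, 0.77, 0.81, 0.87 and 0.75. Gabrp, a subunit gene of the GABA-A receptor, was at 280 CPM in Control replicate 5, against 333 to 365 CPM in the other 9 libraries. Without Control replicate 5 their r was 0.87, 0.77, 0.74, 0.68 and 0.68 in the same order, and without the 2 libraries farthest from the median of Csn3 it was 0.86, 0.88, 0.65, 0.56 and 0.56. Rps26 has near-identical copies in the genome, so its counts are uncertain.

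The hormone pathway that drives milk genes was expressed, and none of its genes passed. Of 25 listed genes of lactogenic receptors and signalling 24 were tested, with 14 estimates above and 10 below 0, a median log2 fold change of 0.0080 and 0 calls. Prlr was at 148 ± 12.6 CPM with BGN and 138 ± 16.1 CPM in Control cells (log2 fold change 0.099, edgeR adjusted p = 0.963). Stat5a was at 47.9 ± 2.04 CPM with BGN and 46.6 ± 2.44 CPM in Control cells (log2 fold change 0.038). Nfib, a transcription factor gene of milk gene activation, was at 737 ± 46.1 CPM with BGN and 692 ± 39.8 CPM in Control cells (0.091). Cebpb, another such factor, was at 112 ± 6.14 CPM with BGN and 123 ± 14.6 CPM in Control cells (-0.14), both with an edgeR adjusted p of 0.945. The cytokine-activated factor Stat3 was at 695 ± 10.2 CPM with BGN and 680 ± 31.4 CPM in Control cells.

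Other genes listed for milk proteins and the milk fat globule were in part expressed too, and none was called. Of 18 listed, 13 were tested, 4 with estimates above and 9 below 0 (median -0.026). Spp1, osteopontin, averaged 1409 ± 106 CPM with BGN and 1332 ± 171 CPM in Control cells, and Trf, transferrin, 1265 ± 273 CPM with BGN and 1320 ± 232 CPM in Control cells. Ltf, lactoferrin, was at 438 ± 28.8 CPM with BGN and 485 ± 31.6 CPM in Control cells, with a log2 fold change of -0.15 (95% interval -0.25 to -0.046, unadjusted p = 0.0066 and adjusted p = 0.945, both by edgeR). BGN replicate 5 had 387 CPM of Ltf and the other 4 BGN libraries 444 to 457 CPM. Muc1, an apical mucin of the milk fat globule membrane, was at 93.2 ± 7.46 CPM with BGN and 84.3 ± 3.11 CPM in Control cells, with a log2 fold change of 0.14 (95% interval 0.040 to 0.25, unadjusted p = 0.0091 and adjusted p = 0.945, both by edgeR). For both genes the libraries of the groups overlapped. The 5 genes that failed the filter averaged at most 0.462 CPM, among them Glycam1, Cd36 and Fabp3, which are named here after their values were seen.

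Genes that supply milk fat and lactose gave no call either. Of 15 fatty acid synthesis genes 14 were tested, 10 above and 4 below 0 (median 0.028) with 0 calls. Scd1, a fatty acid desaturase, averaged 6346 ± 1112 CPM with BGN and 6015 ± 430 CPM in Control cells, and its relative Scd2 1380 ± 134 CPM with BGN and 1353 ± 58.2 CPM in Control cells. Of smallest p in this list were Elovl1, an elongase (62.6 ± 2.29 CPM with BGN, 59.4 ± 5.55 CPM in Control cells), and Elovl6, another (113 ± 4.41 CPM with BGN, 107 ± 6.95 CPM in Control cells). Control replicate 5 had 49.7 CPM of Elovl1 and the other 4 Control libraries 60.1 to 63.2 CPM, a range that holds the BGN mean. Of 24 genes of lipid uptake, triglyceride synthesis and the droplet 19 were tested, 6 above and 13 below 0 (median -0.018) with 0 calls. There Plin3, a droplet coat gene, averaged 86.6 ± 6.16 CPM with BGN and 87.9 ± 4.23 CPM in Control cells, and Acsl3, an acyl-CoA synthetase, 198 ± 10.5 CPM with BGN and 195 ± 4.89 CPM in Control cells. Dgat2, an enzyme of the last step of triglyceride synthesis, had a log2 fold change of 0.18 (95% interval -0.042 to 0.40). Cidea, a droplet protein gene, was at 2.08 ± 0.371 CPM with BGN and 1.62 ± 0.605 CPM in Control cells (log2 fold change 0.37, 95% interval -0.12 to 0.85). Of 17 genes of lactose synthesis, ion and zinc transport 16 were tested, 6 above and 10 below 0 (median -0.0076) with 0 calls. The zinc transporter gene Slc30a2 had the lowest estimate of that list, -0.56 (95% interval -1.18 to 0.073), at 0.760 ± 0.299 CPM with BGN and 1.13 ± 0.376 CPM in Control cells. Slc39a8, another zinc transporter gene, was at 31.0 ± 1.01 CPM with BGN and 29.1 ± 1.95 CPM in Control cells. Slc12a2, an ion cotransporter, averaged 226 ± 16.6 CPM with BGN and 220 ± 12.4 CPM in Control cells. In each of the 5 lists the smallest adjusted p was 0.945, by edgeR.

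**Figure D4:**
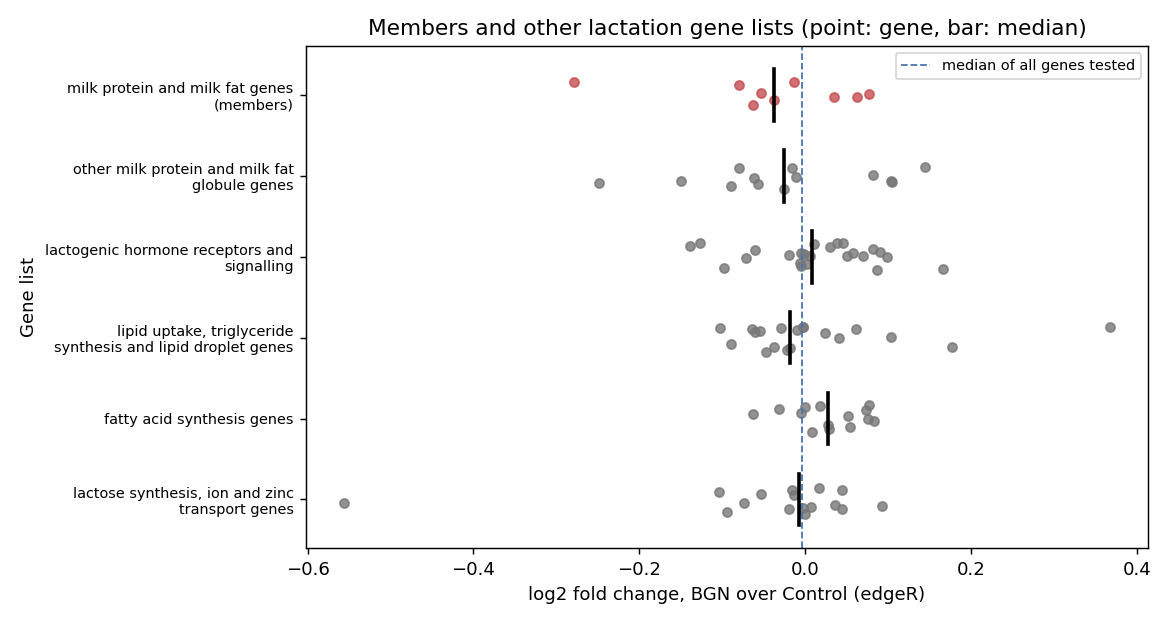
Log2 fold change, BGN over Control, of each tested gene (points) of the milk protein and milk fat genes (red) and of 5 other lactation lists (grey), with a bar at each list's median and a dashed line at the median of all 14415 tested genes. The list medians lie between -0.038 and 0.028, close to the dashed line at -0.0040, and no gene shown passed the adjusted threshold.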

How the data were processed

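Poly-A selected RNA of mouse mammary epithelial cells was sequenced in 10 libraries, per the labels' protocols. The values the authors deposited are raw read counts per gene symbol. Per the submitters' processing notes the tools were HISAT2 2.2.1, cutadapt 1.9.1, HTSeq, FastQC and DESeq2, on GRCm39. For the annotation release and the strand setting nothing is stated, so overlapping genes may not be separable.

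Genes were kept by filterByExpr (10 counts scaled to library size in at least 5 libraries), given TMM factors and compared between treatments by the robust quasi-likelihood test of edgeR 4.0.16 in R 4.3.3, with p-values adjusted after Benjamini and Hochberg over the whole table. DESeq2 1.42.0 and limma 3.58.1 were alternatives, beside other scalings and filters, no robust estimation, a replicate block and left-out libraries. SEs came from the fold change and its F statistic. Log2 CPM for correlations used a prior count of 2. Transcript lengths came from GENCODE M21 and promoters from RefSeq, both on GRCm38, so no coordinates were carried over to GRCm39. The edgeR step was tested on simulated data, with changes placed in 200 genes. All of these had higher mean counts than Lalba (25) and Csn1s2a (10.2). Whether changes at such low counts would be called was therefore not examined.

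The genes and lists were chosen with earlier results of these data known. Named genes were the members, keratins, Prlr, Stat5a and Elf5, per list the 2 of highest mean, the 2 of smallest p and any called, and the 5 nearest to Csn3. Every pair of libraries differed by more than sampling noise (chi-square per degree of freedom 2.43 or more, genes averaging 50 counts or more).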

Additional observations from a re-analysis of the deposited data

Results flagged for a closer look

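In groups of 5 libraries, a value was taken as standing apart when its gap to the nearest library exceeded 0.71 of the group's range. Of 88 sets of group values examined 9 met this. Chance flags about 1 in 20 sets, but the sets were not independent and 4 of the 9 were genes picked for following Csn3, so the count is not read against that share.

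The summed level of the milk protein and milk fat genes was low in BGN replicate 5 (2724 CPM, the other BGN libraries 2978 to 3059 CPM) and in Control replicate 5 (2420 CPM, the other Control libraries 3012 to 3112 CPM). No single member met the limit. Control replicate 5 was also the lowest library for all 5 genes nearest to Csn3, which were selected for following Csn3, itself low there. The limit was met by 4 of them, with 280 CPM for Gabrp, 596 CPM for Rps26, 523 CPM for Laptm4a and 351 CPM for Ube2d3, and not by Fam122b, with 17.6 CPM against 23.9 to 27.2 CPM in the other 9 libraries. It was low for Elovl1, a fatty acid elongase, at 49.7 CPM against 60.1 to 63.2 CPM. Ltf was low in BGN replicate 5, at 387 CPM against 444 to 457 CPM, and Cidea in BGN replicate 4, at 1.44 CPM against 2.13 to 2.34 CPM.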

How the results depend on the processing

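Under 20 alternatives (18 for Csn1s2a), 0 milk genes were called (smallest adjusted p = 0.723), and 160 of 178 estimates kept their direction. Without the filter on low counts 3 genes were called over the whole table, none of them a milk gene. The estimate of Lalba turned to 0.20 with limma-voom and to 0.23 with BGN replicate 5 and Control replicate 5 both left out, where that of Plin2 was 0.028, that of Btn1a1 0.10 and 5 members lay above 0; Csn3 was 0.014 with the replicate block. Over the leave-one-out fits the estimates ran from -0.32 to 0.11 for Csn2, -0.13 to 0.035 for Csn3, -0.20 to 0.12 for Lalba, 0.0018 to 0.078 for Btn1a1, -0.15 to 0.0215 for Xdh and -0.095 to 6.3e-05 for Plin2. The number of members above 0 ran from 3 to 8, being 5 without Control replicate 1, 2 or 3 and 8 without BGN replicate 5. The cause was not tested. Same-numbered libraries correlated by -0.020 to 0.20, with 1 of 5 pairs over 0.1 and 3 of 10 libraries nearest to their own number, so the numbers were not taken to pair samples; the replicate block called 0 genes. Over the union of exons, a length chosen after seeing the data, levels were 269 CPM per kb for Csn3, 97.2 for Plin2, 56.9 for Csn1s1, 16.0 for Btn1a1, 11.3 for Xdh, 0.948 for Csn2, 0.213 for Wap and 0.147 for Csn1s2a. The r of Csn1s1 and Csn3 ran from -0.30 to 0.74 over left-out libraries. At 4 to 16 counts for Csn1s2a and 2 to 7 for Wap, depth limits what can be seen.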

Other observations

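Between Csn1s1 and Csn3 in the RefSeq gene order lie 6 other protein-coding genes, among them the caseins Csn2 and Csn1s2a. Csn1s2b, the remaining casein of the cluster, had 3 to 12 counts per library, at 0.267 ± 0.112 CPM with BGN and 0.368 ± 0.173 CPM in Control cells (SD, n = 5 each). Prr27 was at 1.27 ± 0.545 CPM with BGN and 1.28 ± 0.567 CPM in Control cells. Odam, which neighbours Csn3 but for BC037156 and encodes a protein of the enamel organ, was at 2.15 ± 0.465 CPM with BGN and 1.68 ± 0.336 CPM in Control cells. BC037156 had 0 to 2 counts per library.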
